A study of Mus musculus with 12 samples.

Results

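The 45 genes described here encode enzymes, membrane proteins and proton pump subunits of the lysosome of the mouse heart. They were listed by name, with no threshold on measured values but with earlier results of these data known: 12 proteases, 11 glycosidases and sulfatases, 5 enzymes and carriers of lipid breakdown, 2 secreted precursor proteins, 5 membrane proteins and 10 subunits of the vacuolar proton pump. All 45 were found among the 38293 genes of the deposited tables, and all 45 were among the 14770 genes with enough reads to be tested. The RNA came from left ventricles of healthy mice of the C57BL/6J strain, as 3 groups of 4 sequencing libraries. The antimiR-195 group received the hydrogel Upy-PEG loaded with antimiR-195, an antisense inhibitor of the microRNA miR-195. The Upy-PEG group received the same hydrogel with no drug, and the PBS group received phosphate-buffered saline with no drug. Every heart was injected through an open chest with 2 doses of 10 µl into the muscle and was collected 3 days later, so no library comes from an uninjected heart. Sex, age and the number of animals behind a library are not given in the sources used here, so p-values measure the spread between these 12 samples, which may in part be technical.

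Lysosomes are acidic organelles in which hydrolases break down material that arrives by endocytosis, phagocytosis and autophagy. A rotary proton pump, made of a membrane sector called V0 and a cytosolic sector called V1, uses ATP to acidify the lumen, and the enzymes work best at that low pH. In the heart, cardiomyocytes depend on lysosomes for autophagy and glycogen breakdown, while macrophages carry large amounts of lysosomal proteases for digesting engulfed debris. Many lysosomal genes share an E-box in the promoter through which the transcription factor TFEB and its relatives can act together on the set.

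Total gene counts per library ranged from 22353241 to 30278621 reads, and 18668 to 19740 genes had at least 1 read. The ventricle label matched its markers: all 12 cardiomyocyte markers were detected in every library, with summed levels of 97333 to 105885 CPM (reads scaled to library size) in antimiR-195, 73568 to 96694 CPM in Upy-PEG and 99367 to 112876 CPM in PBS libraries, against 6.41 to 75.7 CPM for 3 atrial markers over all libraries. Replicates 2 and 3 of the antimiR-195 group stood apart from the other 10 libraries on the first principal component, at −60.2 and −40.7 against −8.48 to 33.4. Their log2 deviations declined with gene length, with slopes of −0.23 and −0.14 per log2 unit of length against −0.042 to 0.12 in the other libraries. Counts, medians and several named genes of the comparisons that use the antimiR-195 group are therefore also given without these libraries.

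Levels per kilobase differed widely among the 45 genes. Values in RPKM, which are reads scaled to gene length and library size, were highest in Upy-PEG and PBS hearts for Psap, which encodes the precursor of the saposins that present lipids to hydrolases, with 539 ± 29.4 RPKM in antimiR-195, 672 ± 33.8 RPKM in Upy-PEG and 624 ± 56.8 RPKM in PBS libraries (mean ± SD, n = 4 each). The aspartic protease Ctsd, with the highest mean in antimiR-195 hearts, had 578 ± 117 RPKM in antimiR-195, 626 ± 59.3 RPKM in Upy-PEG and 501 ± 58.1 RPKM in PBS libraries. The abundant membrane glycoprotein Lamp1 had 213 ± 6.26 RPKM in antimiR-195, 241 ± 11 RPKM in Upy-PEG and 204 ± 14 RPKM in PBS libraries. At the other end stood Gla, which encodes alpha-galactosidase A, the enzyme missing in Fabry disease, with 2.14 ± 0.458 RPKM in antimiR-195, 2.71 ± 0.320 RPKM in Upy-PEG and 1.36 ± 0.441 RPKM in PBS libraries. When the 45 genes were ordered by their PBS mean, only 7 of the 44 neighbouring pairs were separated in all PBS libraries, so the order within the middle of the list is not resolved. Among proton pump subunits the PBS level ran from 4.81 ± 0.581 RPKM for the catalytic subunit Atp6v1a to 82.9 ± 11 RPKM for the stalk subunit Atp6v1e1.

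**Figure D1:**
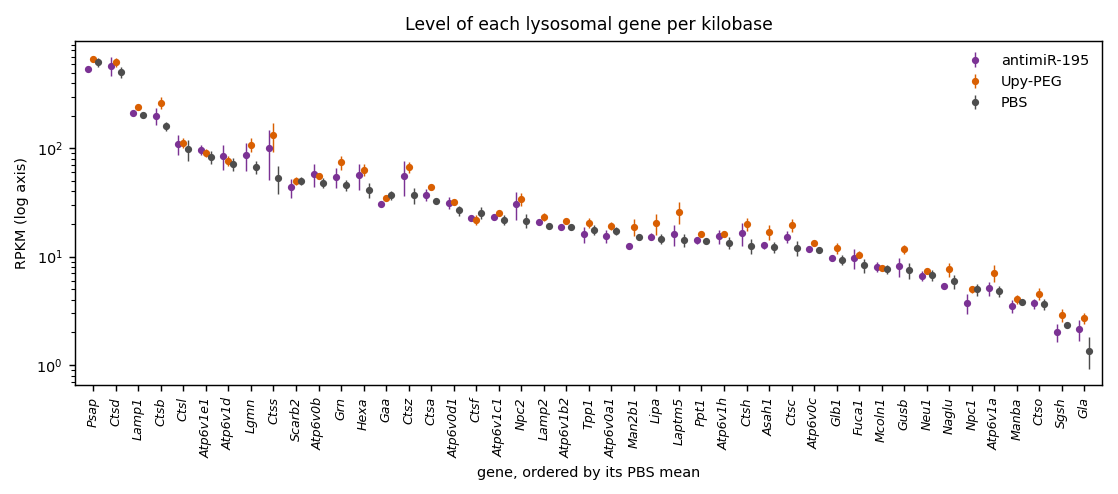
RPKM of each of the 45 lysosomal genes on a log axis, ordered by the PBS mean; points are means and bars are SD over 4 libraries for antimiR-195 (left of each trio), Upy-PEG (middle) and PBS (right). Psap and Ctsd have the 2 highest means in every group, and Gla is lowest in Upy-PEG and PBS.

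The first comparison asks what the hydrogel adds to an injection of saline. In Upy-PEG hearts, lysosomal genes were mostly higher than in PBS hearts: the fitted log2 fold change was above 0 in 39 of 45 genes, against 44.7% of all 14770 genes tested. The median log2 fold change of the 45 genes was 0.20, a 1.15-fold difference, beside a median of −0.028 over all genes tested. In whole tissue, more cells of a type and more RNA per cell cannot be told apart. By edgeR's quasi-likelihood test with Benjamini-Hochberg adjustment over all genes, 0 of 45 passed an adjusted p of 0.05, as did 0% of all genes, and the smallest adjusted p of a lysosomal gene was 0.0971. At an unadjusted p under 0.05, 17 of 45 were higher (9.33% of all genes) and 1 was lower (3.83% of all genes). All 4 Upy-PEG libraries lay above all 4 PBS libraries in 18 of 45 genes, against 5.91% of all genes, and the opposite separation occurred in 0 of 45, against 3.77%.

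The difference was larger among the hydrolases than in the proton pump. The 30 hydrolases, lipid carriers and precursors had a median log2 fold change of 0.25, with 26 higher and 15 of those at an unadjusted p under 0.05. The 10 pump subunits had a median of 0.11, with 10 higher and 1 at that level. These medians are descriptions and the difference between them was not tested.

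**Figure D2:**
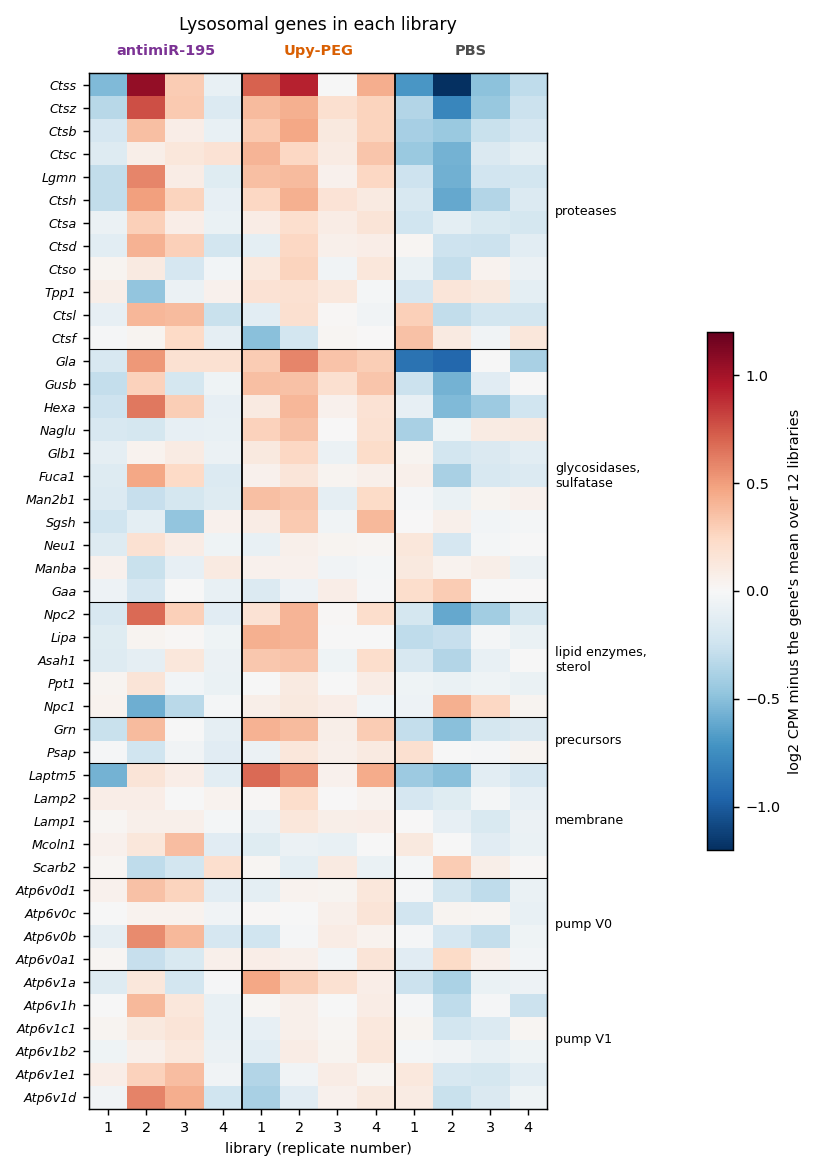
Log2 CPM of each lysosomal gene minus its mean over the 12 libraries, in columns of 4 antimiR-195, 4 Upy-PEG and 4 PBS libraries and in rows grouped by role; red is above and blue below the gene's mean. Most hydrolase rows are red in Upy-PEG and blue in PBS, antimiR-195 replicate 2 resembles the Upy-PEG columns in the protease rows, and pump rows are pale.

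Of the 12 proteases, 11 were higher in Upy-PEG than in PBS hearts, with a median log2 fold change of 0.44. Of these, 7 were higher at an unadjusted p under 0.05 with no overlap between the groups: Ctss, Ctsz, Ctsb, Ctsc, Lgmn, Ctsh and Ctsa. Ctsb (ENSMUSG00000021939, GRCm38 chr14:63122462-63145923), a broadly expressed cysteine protease, had 1196, 1325, 1044 and 1152 CPM in Upy-PEG libraries, against 726, 705, 800.0 and 838 CPM in PBS libraries. The lowest Upy-PEG library lay above the highest PBS library, and the log2 fold change was 0.62 ± 0.13 (SE), a 1.54-fold difference that did not pass (edgeR adjusted p = 0.0971). Ctsc (ENSMUSG00000030560, GRCm38 chr7:88278085-88310888), a dipeptidyl peptidase that activates the granule proteases of leukocytes, had 117, 105, 94.7 and 111 CPM in Upy-PEG libraries, against 64.7, 59.5, 78.4 and 81.3 CPM in PBS libraries. These groups did not overlap either, and Ctsc was 0.59 ± 0.12 higher on the log2 scale (edgeR adjusted p = 0.0971).

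The largest fold change among the 45 genes was that of Ctss, a protease of antigen-presenting cells that trims the invariant chain of MHC class II. It had 188, 218, 114 and 155 CPM in Upy-PEG libraries, against 70.5, 46.6, 81.8 and 92.8 CPM in PBS libraries. The groups were separate but the spread was wide, and the log2 fold change was 1.21 ± 0.31, a 2.31-fold difference (edgeR adjusted p = 0.113). Ctss overlaps a pseudogene on the same strand, so its count is uncertain. The carboxypeptidase Ctsz had a log2 fold change of 0.77, the asparaginyl endopeptidase Lgmn 0.58, the aminopeptidase Ctsh 0.56 and Ctsa, which also stabilises the sialidase complex, 0.32. Both Ctsd and Ctsl, which are abundant in this tissue, were closer to PBS, with log2 fold changes of 0.22 ± 0.15 for Ctsd and 0.11 for Ctsl. Ctso and Tpp1 had values of 0.22 and 0.12. The exception was the cysteine protease Ctsf, with 32.4, 39.4, 46.6 and 46.2 CPM in Upy-PEG libraries, against 58.7, 49.6, 44.6 and 50.7 CPM in PBS libraries. Its groups overlapped and its log2 fold change was −0.31 ± 0.13 (edgeR adjusted p = 0.32).

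Among the 11 glycosidases and sulfatases, 9 were higher in Upy-PEG than in PBS hearts, 4 of them at an unadjusted p under 0.05, and the median log2 fold change was 0.23. Gla (ENSMUSG00000031266, GRCm38 chrX:134588149-134601125) had 7.86, 9.58, 8.09 and 7.79 CPM in Upy-PEG libraries, against 3.45, 3.31, 6.33 and 4.86 CPM in PBS libraries. Every Upy-PEG library was above every PBS library, and the log2 fold change was 0.90 ± 0.21, a 1.86-fold difference (edgeR adjusted p = 0.0981). Gusb (ENSMUSG00000025534, GRCm38 chr5:129989011-130003049), the beta-glucuronidase that cleaves glycosaminoglycans, had 51.6, 51.3, 46.0 and 50.9 CPM in Upy-PEG libraries, against 33.6, 27.2, 36.7 and 40.1 CPM in PBS libraries. Again the groups did not overlap, and the log2 fold change was 0.54 ± 0.14 (edgeR adjusted p = 0.113). Hexa, the alpha subunit of beta-hexosaminidase, had a log2 fold change of 0.50 with separate groups. Values between 0.20 and 0.25 were found for the beta-galactosidase Glb1 (0.25), the heparan sulfate enzymes Naglu (0.25) and Sgsh (0.20), the fucosidase Fuca1 (0.23) and the acid alpha-mannosidase Man2b1 (0.22). The sialidase Neu1 was at 0.024 and the beta-mannosidase Manba at −0.030. Gaa, which degrades glycogen in lysosomes and is deficient in Pompe disease, had 145, 156, 172 and 160.4 CPM in Upy-PEG libraries, against 188, 201, 162 and 163 CPM in PBS libraries. That was a log2 fold change of −0.17 ± 0.10 with overlapping groups (edgeR adjusted p = 0.516).

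Of the 5 lipid genes, 4 were higher in Upy-PEG than in PBS hearts and 3 had an unadjusted p under 0.05. Asah1 (ENSMUSG00000031591, GRCm38 chr8:41340197-41374773), the acid ceramidase, had 58.1, 59.1, 44.8 and 53.9 CPM in Upy-PEG libraries, against 40.8, 36.5, 43.8 and 46.2 CPM in PBS libraries. Replicate 3 of Upy-PEG fell within the PBS range, and the log2 fold change was 0.37 ± 0.11 (edgeR adjusted p = 0.158). Lipa (ENSMUSG00000024781, GRCm38 chr19:34492318-34527474), the acid lipase that hydrolyses cholesteryl esters and triglycerides, had 65.6, 65.0, 48.7 and 48.7 CPM in Upy-PEG libraries, against 39.6, 40.4, 48.1 and 46.3 CPM in PBS libraries. The groups were separate by a narrow margin, since 2 Upy-PEG libraries were close to the highest PBS library, and the log2 fold change was 0.39 ± 0.12 (edgeR adjusted p = 0.163). The carriers that pass cholesterol out of the lysosome differed in sign: the soluble Npc2 had a log2 fold change of 0.56 ± 0.18 with separate groups, while the membrane protein Npc1 was at −0.11 ± 0.14 with overlapping groups. The thioesterase Ppt1 was at 0.12, with separate groups.

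The precursor pair also split. Grn (ENSMUSG00000034708, GRCm38 chr11:102430315-102437048), which encodes progranulin, a secreted protein cut into granulins in the lysosome, had 262, 255, 207 and 243 CPM in Upy-PEG libraries, against 161, 139, 169.7 and 174 CPM in PBS libraries. The groups were separate and the log2 fold change was 0.59 ± 0.14, a 1.5-fold difference (edgeR adjusted p = 0.0985). Psap (ENSMUSG00000004207, GRCm38 chr10:60277627-60302597) had 1591, 1840.5, 1739 and 1794 CPM in Upy-PEG libraries, against 1909, 1663, 1649.7 and 1707 CPM in PBS libraries. Here the groups overlapped over most of their range, with a log2 fold change of 0.0075 ± 0.11 (adjusted p by edgeR = 0.985) that ran from −0.016 to 0.057 when each library was left out in turn.

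Among the 5 membrane proteins, Laptm5 (ENSMUSG00000028581, GRCm38 chr4:130913125-130936141), a transporter-like protein of lysosomes in blood-derived cells, had 109, 99.0, 70.3 and 92.4 CPM in Upy-PEG libraries, against 50.3, 48.0, 62.2 and 58.9 CPM in PBS libraries. The groups were separate and the log2 fold change was 0.76 ± 0.17, a 1.69-fold difference (edgeR adjusted p = 0.0971). Lamp2 (ENSMUSG00000016534, GRCm38 chrX:38401357-38456454), needed for fusion of autophagosomes with lysosomes, had 203, 232, 200.3 and 206 CPM in Upy-PEG libraries, against 175, 181, 197 and 187 CPM in PBS libraries. This gap was narrow but without overlap, at a log2 fold change of 0.19 ± 0.088 (adjusted p by edgeR = 0.388). Lamp1 was at 0.14, the calcium channel Mcoln1 at −0.053 and Scarb2, the receptor that delivers glucocerebrosidase, at −0.11. With library size alone as the scaling, the values of Mcoln1 and Manba were above 0, at 0.047 and 0.073.

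**Figure D3:**
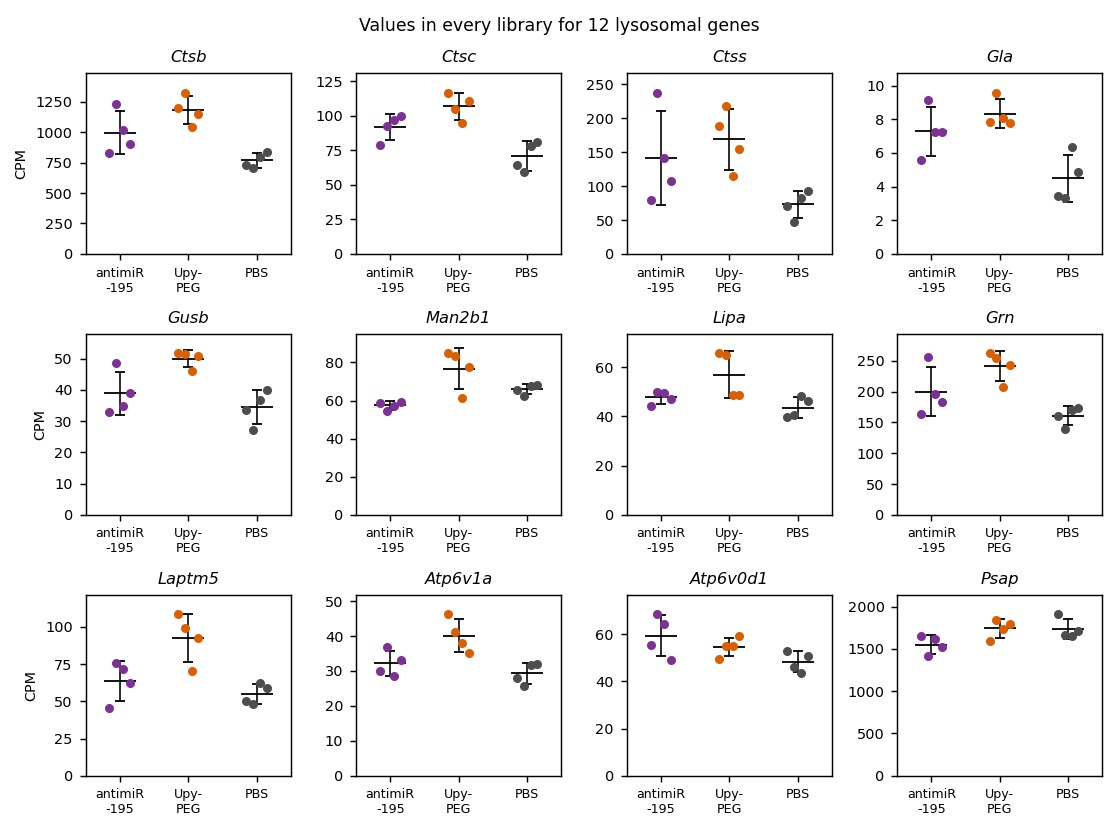
CPM of 12 lysosomal genes in each library, with antimiR-195, Upy-PEG and PBS from left to right; bars are the mean and SD of 4 libraries and each axis starts at 0. Ctsb, Ctsc, Ctss, Gla, Gusb, Lipa, Grn, Laptm5 and Atp6v1a show no overlap between Upy-PEG and PBS, Atp6v0d1 and Psap do, and Man2b1 shows no overlap between antimiR-195 and Upy-PEG.

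The 10 subunits of the proton pump were all fitted higher in Upy-PEG than in PBS hearts, by small amounts, with log2 fold changes of 0.012 to 0.45. In a fit that also held the length slopes of the libraries, 8 of the 10 were higher and 2 lower. Atp6v1a (ENSMUSG00000052459, GRCm38 chr16:44085402-44139705), the catalytic subunit of V1 that binds ATP, was the only one with an unadjusted p under 0.05. It had 46.2, 41.0, 38.0 and 35.2 CPM in Upy-PEG libraries, against 27.9, 25.7, 31.7 and 32.1 CPM in PBS libraries. The groups were separate and the log2 fold change was 0.45 ± 0.12 (edgeR adjusted p = 0.114). Atp6v1h (ENSMUSG00000033793, GRCm38 chr1:5070018-5162529), which couples V1 to V0, had 29.99, 30.8, 29.4 and 31.3 CPM in Upy-PEG libraries, against 29.2, 23.9, 29.3 and 24.6 CPM in PBS libraries. Its groups were separate by a very narrow margin, with a log2 fold change of 0.18 ± 0.11 (adjusted p by edgeR = 0.56). In V0, Atp6v0d1 (ENSMUSG00000013160, GRCm38 chr8:105524465-105566047) had 49.5, 55.2, 54.9 and 59.1 CPM in Upy-PEG libraries, against 53.1, 46.0, 43.6 and 50.8 CPM in PBS libraries, and the groups overlapped (log2 fold change 0.18 ± 0.11, edgeR adjusted p = 0.579). Atp6v0c (ENSMUSG00000024121, GRCm38 chr17:24163866-24169702), the proteolipid of the rotor ring, had 41.7, 41.2, 43.3 and 46.2 CPM in Upy-PEG libraries, against 35.4, 42.5, 42.0 and 38.9 CPM in PBS libraries. Its log2 fold change of 0.12 ± 0.087 (edgeR adjusted p = 0.635) was 0.066 without PBS replicate 1. The other subunits were at 0.11 (Atp6v0b), 0.033 (Atp6v0a1), 0.11 (Atp6v1c1), 0.086 (Atp6v1b2), 0.036 (Atp6v1e1) and 0.012 (Atp6v1d).

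Atp6v0d2 and Tcirg1, pump isoforms typical of macrophages and osteoclasts, had larger fold changes, at 1.43 ± 0.31 and 0.56 ± 0.18 on the log2 scale (edgeR adjusted p = 0.0971 and 0.176). Atp6v0d2, an alternative to Atp6v0d1, had 2.27, 3.8, 1.90 and 1.59 CPM in Upy-PEG libraries, against 0.945, 0.764, 0.999 and 0.836 CPM in PBS libraries. It made up 2.62% to 6.44% of the reads of both genes in Upy-PEG and 1.62% to 2.24% in PBS libraries. The log2 ratio of Atp6v0d2 to Atp6v0d1 was −4.58 ± 0.58 in Upy-PEG and −5.74 ± 0.22 in PBS libraries (mean ± SD, n = 4 each), a difference of 1.16 with a 2-sided exact permutation p of 0.0286, the smallest that 4 against 4 libraries allow, and 0.0857 after adjustment over 6 ratio comparisons. The ratio was −5.80 ± 0.37 in antimiR-195 libraries, which lies 1.22 below Upy-PEG with the same exact permutation p of 0.0286 and adjusted value of 0.0857, and differs by −0.057 from PBS (exact permutation p = 0.8). The log2 ratio of Tcirg1 to Atp6v0a1, the corresponding choice for the membrane-bound a subunit, was −1.52 ± 0.40 in antimiR-195, −1.28 ± 0.31 in Upy-PEG and −1.79 ± 0.37 in PBS libraries. Without antimiR-195 replicates 2 and 3 the difference between antimiR-195 and Upy-PEG was −1.33 for the first ratio and −0.54 for the second. The 3 differences of that ratio had exact permutation p-values of 0.0857 to 0.371, and none passed.

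Macrophage markers differed in the same direction as most lysosomal genes between Upy-PEG and PBS hearts. Of 20 markers, such as Adgre1, Csf1r and Lyz2, 19 were higher in Upy-PEG than in PBS hearts, with a median log2 fold change of 0.79, and none was at 0 reads in any library. Their summed level was 991 to 2022 CPM in antimiR-195, 1403 to 2043 CPM in Upy-PEG and 788 to 1194 CPM in PBS libraries. Within each group the library with the lowest marker mean also had the lowest lysosomal mean, each measured as the mean log2 deviation of a list's genes from their own averages. In antimiR-195 replicates 1 to 4 the marker mean was −0.43, 0.43, 0.19 and −0.094 and the lysosomal mean −0.11, 0.17, 0.079 and −0.066. In Upy-PEG replicates 1 to 4 the marker mean was 0.47, 0.46, 0.017 and 0.36 and the lysosomal mean 0.10, 0.21, 0.049 and 0.14. There replicate 1 had the highest marker mean but a lysosomal mean below those of replicates 2 and 4. In PBS replicates 1 to 4 the marker mean was −0.40, −0.66, −0.28 and −0.075 and the lysosomal mean −0.11, −0.24, −0.12 and −0.099. All 4 Upy-PEG libraries lay above all 4 PBS libraries in both means. Neutrophil markers were also higher in Upy-PEG than in PBS hearts, in 7 of 7 tested, with summed levels of 12.4 to 34.1 CPM in antimiR-195, 27.8 to 39.9 CPM in Upy-PEG and 11.8 to 35.2 CPM in PBS libraries and up to 2 of the 9 markers at 0 reads in a library. The 12 cardiomyocyte markers were all lower in Upy-PEG than in PBS hearts, at a median of −0.29. All 9 fibroblast markers were higher in Upy-PEG than in PBS hearts, at a median of 0.45 and with 6 at an unadjusted p under 0.05, and none was at 0 reads. Their summed level was 2780 to 4620.2 CPM in antimiR-195, 4004 to 8392 CPM in Upy-PEG and 2956 to 4850.4 CPM in PBS libraries. All 8 endothelial markers were lower, at a median of −0.16 and with 2 at an unadjusted p under 0.05, and summed to 743 to 1037 CPM in antimiR-195, 857 to 1027 CPM in Upy-PEG and 924 to 1112 CPM in PBS libraries. The part of these cell types in the lysosomal differences was not tested.

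**Figure D4:**
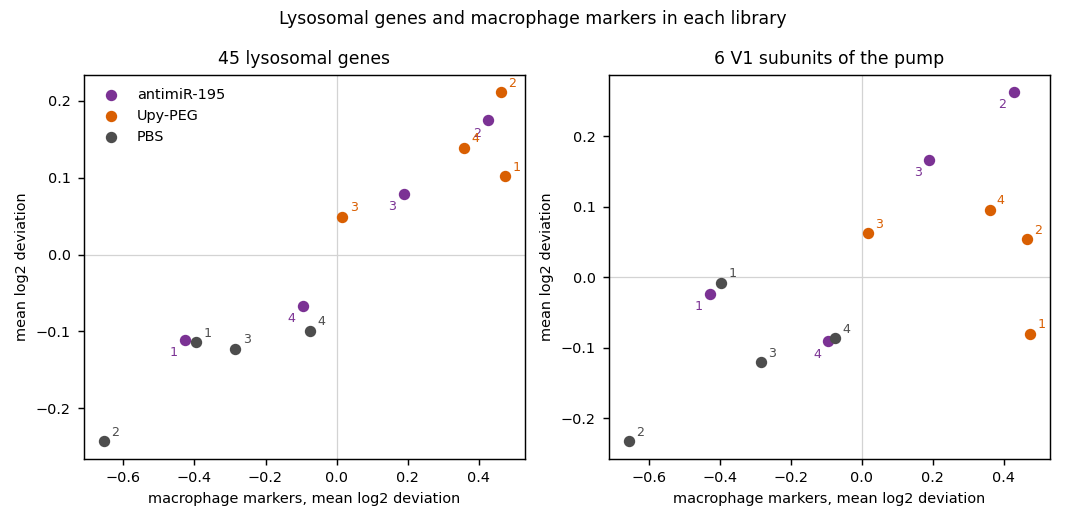
Mean log2 deviation of 20 macrophage markers (horizontal) against that of the 45 lysosomal genes (left panel) and of the 6 V1 pump subunits (right panel), 1 point a library with its replicate number, for antimiR-195, Upy-PEG and PBS. In the left panel all Upy-PEG points lie above all PBS points, and antimiR-195 replicates 2 and 3 lie with Upy-PEG while 1 and 4 lie near PBS.

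How many lysosomal genes were called for Upy-PEG against PBS depended on the test. DESeq2 called 12 of 45 at an adjusted p under 0.05 (519 genes in all), limma voom with sample weights called 16 (918 genes), and edgeR on the 8 libraries compared called 10 (172 genes). EdgeR without antimiR-195 replicates 2 and 3 tested 15135 genes and called 14 of 45 (349 genes). All of these calls were higher in Upy-PEG.

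Of 92 further genes of the pathway from lists of enzymes, membrane proteins, pump parts, sorting factors, regulators and protease inhibitors, 84 were tested, and 53 were higher and 31 lower in Upy-PEG than in PBS hearts. The median log2 fold change was 0.087, with 22 higher and 2 lower at an unadjusted p under 0.05 and 0 past the adjusted threshold. The lowest p-values among the higher genes were those of Cd68, Tfec, Mcoln2 and Gpnmb. Cd68, a glycoprotein of macrophage lysosomes, had 62.6, 69.7, 50.5 and 62.6 CPM in Upy-PEG libraries, against 18.1, 21, 34.4 and 31.8 CPM in PBS libraries (log2 fold change 1.22 ± 0.19, edgeR adjusted p = 0.0809). Gpnmb, a membrane glycoprotein of phagocytes, had 35.4, 60.0, 44.3 and 32.5 CPM in Upy-PEG libraries, against 14.7, 7.72, 23.1 and 18.6 CPM in PBS libraries. Both genes had separate groups, and the log2 fold change of Gpnmb was 1.42 ± 0.30 (edgeR adjusted p = 0.0971). The channel gene Mcoln2 was at 1.32 ± 0.26, while its close relative Mcoln1, one of the 45 genes, was at −0.053.

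The transcription factors that act on lysosomal promoters differed among themselves. Tfec, a family member found in macrophages, had 2.21, 2.38, 2.02 and 2.55 CPM in Upy-PEG libraries, against 0.814, 0.467, 0.916 and 1.15 CPM in PBS libraries, with separate groups and a log2 fold change of 1.44 ± 0.27 (adjusted p by edgeR = 0.0971). Tfe3 was at 0.24 ± 0.089, Mitf at −0.00045 ± 0.14 and Tfeb at −0.17 ± 0.14, none of them past the adjusted threshold. The lower genes with the lowest p-values were Rragd (−0.27), which encodes a GTPase of nutrient sensing at the lysosome, its regulator Flcn (−0.26), the coactivator Ppargc1a (−0.41) and the sphingomyelinase Smpd1 (−0.21). Without PBS replicate 1 the value of Rragd was −0.18, and without PBS replicate 2 that of Ppargc1a was −0.22. The cathepsin inhibitor Cstb was at 0.78 ± 0.21 and Cst3 at 0.17 ± 0.20 (edgeR adjusted p = 0.122 and 0.781).

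Promoter sequences are shown for 5 of the 45 genes because the E-box bound by TFEB is the feature that many lysosomal genes share. Sequences are RefSeq promoters of GRCm38.p6, from 250 bases before to 50 bases after the start site, and 43 promoters matched 38 of the 45 genes. Ctsb, Ctsh, Npc1, Asah1, Atp6v1b2, Atp6v1c1 and Atp6v1h were not searched. CACGTG, a palindrome that reads the same on both strands, was found in 15 of the 43 promoters (34.9%), against 7.15% of all 32851 promoters of the same length and 9.70% of those of tested genes. The longer TCACGTG, which contains it, was searched on both strands. It was found in 13 of 43 promoters (30.2%), against 3.77% of all promoters and 5.67% of those of tested genes. The full palindromic form of the coordinated lysosomal expression and regulation (CLEAR) element was found in 0 of 43 promoters. That form was found in 0.326% of all promoters and 0.639% of those of tested genes. A match is a description of the letters and does not show that a factor binds there. Capitals mark TCACGTG or its reverse complement, each of which contains CACGTG. Lamp1 (plus strand, chr8:13158911-13159210) holds 4 copies, whose E-boxes begin 61, 45, 28 and 15 bases before the start site, while Gla (minus strand, chrX:134600956-134601255) holds 2. Ctsa (plus strand, chr2:164833523-164833822, an alternative start) also holds 2, while its other promoter (chr2:164832622-164832921, not shown) holds none. Atp6v1a (minus strand, chr16:44139210-44139509) holds 1, in a promoter that lies wholly inside the gene's span given above. Ctss (plus strand, chr3:95526536-95526835), which had the largest fold change, is shown as a promoter with no match.
Lamp1: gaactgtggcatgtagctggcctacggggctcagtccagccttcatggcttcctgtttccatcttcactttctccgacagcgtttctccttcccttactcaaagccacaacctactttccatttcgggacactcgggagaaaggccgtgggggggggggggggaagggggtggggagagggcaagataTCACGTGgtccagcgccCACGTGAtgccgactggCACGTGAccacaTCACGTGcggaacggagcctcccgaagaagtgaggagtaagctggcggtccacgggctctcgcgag
Gla: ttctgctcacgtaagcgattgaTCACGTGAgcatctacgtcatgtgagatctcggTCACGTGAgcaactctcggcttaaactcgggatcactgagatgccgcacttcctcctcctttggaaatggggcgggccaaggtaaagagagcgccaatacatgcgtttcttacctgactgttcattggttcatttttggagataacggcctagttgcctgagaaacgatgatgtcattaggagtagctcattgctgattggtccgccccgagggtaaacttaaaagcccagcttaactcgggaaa
Ctsa: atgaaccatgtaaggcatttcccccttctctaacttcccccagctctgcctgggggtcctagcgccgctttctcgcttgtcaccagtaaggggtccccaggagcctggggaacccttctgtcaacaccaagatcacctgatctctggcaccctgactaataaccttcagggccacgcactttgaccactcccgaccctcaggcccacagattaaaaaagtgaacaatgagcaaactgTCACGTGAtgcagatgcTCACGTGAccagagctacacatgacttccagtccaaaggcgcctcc
Atp6v1a: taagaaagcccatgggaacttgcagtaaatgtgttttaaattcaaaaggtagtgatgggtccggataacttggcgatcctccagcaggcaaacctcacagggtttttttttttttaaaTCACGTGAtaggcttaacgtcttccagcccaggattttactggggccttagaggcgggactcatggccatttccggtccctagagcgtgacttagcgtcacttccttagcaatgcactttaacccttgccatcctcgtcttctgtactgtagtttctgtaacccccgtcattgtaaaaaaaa
Ctss: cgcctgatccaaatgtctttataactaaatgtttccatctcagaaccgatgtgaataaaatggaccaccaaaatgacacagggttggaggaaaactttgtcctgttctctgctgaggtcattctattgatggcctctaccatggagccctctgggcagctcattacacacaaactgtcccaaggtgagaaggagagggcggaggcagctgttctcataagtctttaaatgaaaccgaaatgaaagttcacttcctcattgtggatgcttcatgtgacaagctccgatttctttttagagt

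Fold changes of genes with and without the motif covered overlapping ranges. The 13 genes with TCACGTG had a median log2 fold change of 0.22 between Upy-PEG and PBS hearts, with a range of −0.17 (Gaa) to 0.90 (Gla). The 25 genes with a promoter but no TCACGTG had a median of 0.19, with a range of −0.31 (Ctsf) to 1.21 (Ctss). Among these 25, Ctsf and Ctsl hold the shorter CACGTG. This comparison is a description without a test. None of the 13 macrophage markers with a promoter in the table, out of 20, held CACGTG.

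The next comparison asks what antimiR-195 adds to the hydrogel. In antimiR-195 hearts 32 of the 45 lysosomal genes were lower and 13 higher than in Upy-PEG hearts, with a median log2 fold change of −0.074 beside −0.0051 over all genes, of which 49.2% were above 0. By edgeR 0 of 45 passed an adjusted p of 0.05, as did 0% of all genes, and the smallest adjusted p was 0.364. At an unadjusted p under 0.05, 7 of 45 were lower (6.4% of all genes) and 0 were higher (6.67% of all genes). All antimiR-195 libraries lay below all Upy-PEG libraries in 2 of 45 genes (2.46% of all genes) and above them in 0 (1.94%). DESeq2 called 0 of the 45 and 13 genes in all. This comparison shares the Upy-PEG libraries with the first. Of the 20 macrophage markers 18 were lower, with a median of −0.25. Neutrophil markers were lower in 7 of 7 tested (median −0.82) and fibroblast markers in 7 of 9 (−0.27). Cardiomyocyte markers were higher in 9 of 12 (0.26) and endothelial markers in 5 of 8 (0.029). The part of these cell types in the result was not tested.

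The 2 genes whose groups did not overlap, against 2.46% of all genes, were Man2b1 and Naglu. Man2b1 (ENSMUSG00000005142, GRCm38 chr8:85083270-85098282) had 59.0, 54.5, 57.0 and 59.1 CPM in antimiR-195 libraries, against 84.7, 83.2, 61.4 and 77.5 CPM in Upy-PEG libraries and 65.4, 62.5, 67.5 and 68.4 CPM in PBS libraries. The antimiR-195 libraries lay below both other groups without overlap, and the log2 fold change against Upy-PEG was −0.42 ± 0.10 (edgeR adjusted p = 0.364). Naglu (ENSMUSG00000001751, GRCm38 chr11:101070012-101077672) had 14.5, 14.3, 15.5 and 15.6 CPM in antimiR-195 libraries, against 20.04, 21.1, 16.6 and 18.7 CPM in Upy-PEG libraries. Here too the groups did not overlap, with a log2 fold change of −0.35 ± 0.12 (adjusted p by edgeR = 0.364). Laptm5 had 45.8, 75.8, 71.7 and 62.3 CPM in antimiR-195 libraries, against 109, 99.0, 70.3 and 92.4 CPM in Upy-PEG libraries. Its groups overlapped, since 2 antimiR-195 libraries were above the lowest Upy-PEG library, and the log2 fold change was −0.54 ± 0.17 (edgeR adjusted p = 0.364). The other genes with an unadjusted p under 0.05 were Sgsh (−0.38), Gusb (−0.36), Atp6v1a (−0.32) and Asah1 (−0.26). The highest values were those of the pump subunits Atp6v1d (0.30 ± 0.17), Atp6v1e1 (0.24 ± 0.13) and Atp6v0b (0.22 ± 0.16), none with an unadjusted p under 0.05. With antimiR-195 replicates 2 and 3 left out these were at −0.059 for Atp6v1d, 0.081 for Atp6v1e1 and −0.13 for Atp6v0b, while Man2b1 was at −0.38 and Naglu at −0.34.

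The roles differed in their balance between antimiR-195 and Upy-PEG hearts. Of the 30 hydrolases, lipid carriers and precursors, 24 were lower in antimiR-195 hearts and 6 higher, with a median log2 fold change of −0.16. The 12 proteases had a median of −0.13, with 9 lower and 0 at an unadjusted p under 0.05. The 5 lipid genes were all lower, with a median of −0.26. The 10 pump subunits were split, with 6 higher and 4 lower and a median of 0.053, a sign that turned with other settings. The pump median was −0.099 with library size alone, −0.046 with the length slopes in the fit and −0.069 without antimiR-195 replicates 2 and 3, where 9 of 10 were lower.

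Among the 84 other pathway genes tested, 55 were lower and 29 higher in antimiR-195 than in Upy-PEG hearts, with a median of −0.092 and 13 lower at an unadjusted p under 0.05. Cd68 had 34.6, 50.04, 39.4 and 42.0 CPM in antimiR-195 libraries, all below the Upy-PEG values given above, with a log2 fold change of −0.56 ± 0.19 (adjusted p by edgeR = 0.364). Gpnmb had 14.8, 25.6, 17.8 and 27.4 CPM in antimiR-195 libraries, also below all Upy-PEG libraries, at −1.01 ± 0.30 on the log2 scale (edgeR adjusted p = 0.364). Atp6v0d2 was at −1.14 ± 0.30 and Tcirg1 at −0.40 ± 0.18 (edgeR adjusted p = 0.364 and 0.374), with overlapping groups for both genes. Without antimiR-195 replicates 2 and 3 the median of the 84 genes was −0.097 with 18 lower at an unadjusted p under 0.05, and the values were −0.68 for Cd68, −1.02 for Gpnmb, −1.47 for Atp6v0d2 and −0.56 for Tcirg1.

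Spread within the antimiR-195 group was wide for several proteases. Ctss had 79.6, 238, 142 and 108 CPM in antimiR-195 libraries, with replicate 2 above every Upy-PEG library and replicate 1 within the PBS range. Its coefficient of variation was 48.6% in antimiR-195, 26.3% in Upy-PEG and 27.1% in PBS libraries, while the median over the 45 genes was 14.6% in antimiR-195, 8.90% in Upy-PEG and 10.5% in PBS libraries. Without replicates 2 and 3, 40 of 45 genes were lower in antimiR-195 than in Upy-PEG hearts and 5 higher, the median log2 fold change was −0.19, and 15 were lower at an unadjusted p under 0.05, against 6.61% of all genes in that fit. With 2 libraries left, groups separated in 21 genes that were lower and 1 that was higher, against 10.9% and 10.1% of all genes. The smallest adjusted p in that fit was 0.45, and the macrophage markers had a median of −0.63 with 20 of 20 lower. Ctss was at −0.85 ± 0.28 and Ctsb at −0.44 ± 0.13 in that fit, against −0.25 ± 0.30 and −0.24 ± 0.13 with all 12 libraries.

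**Figure D5:**
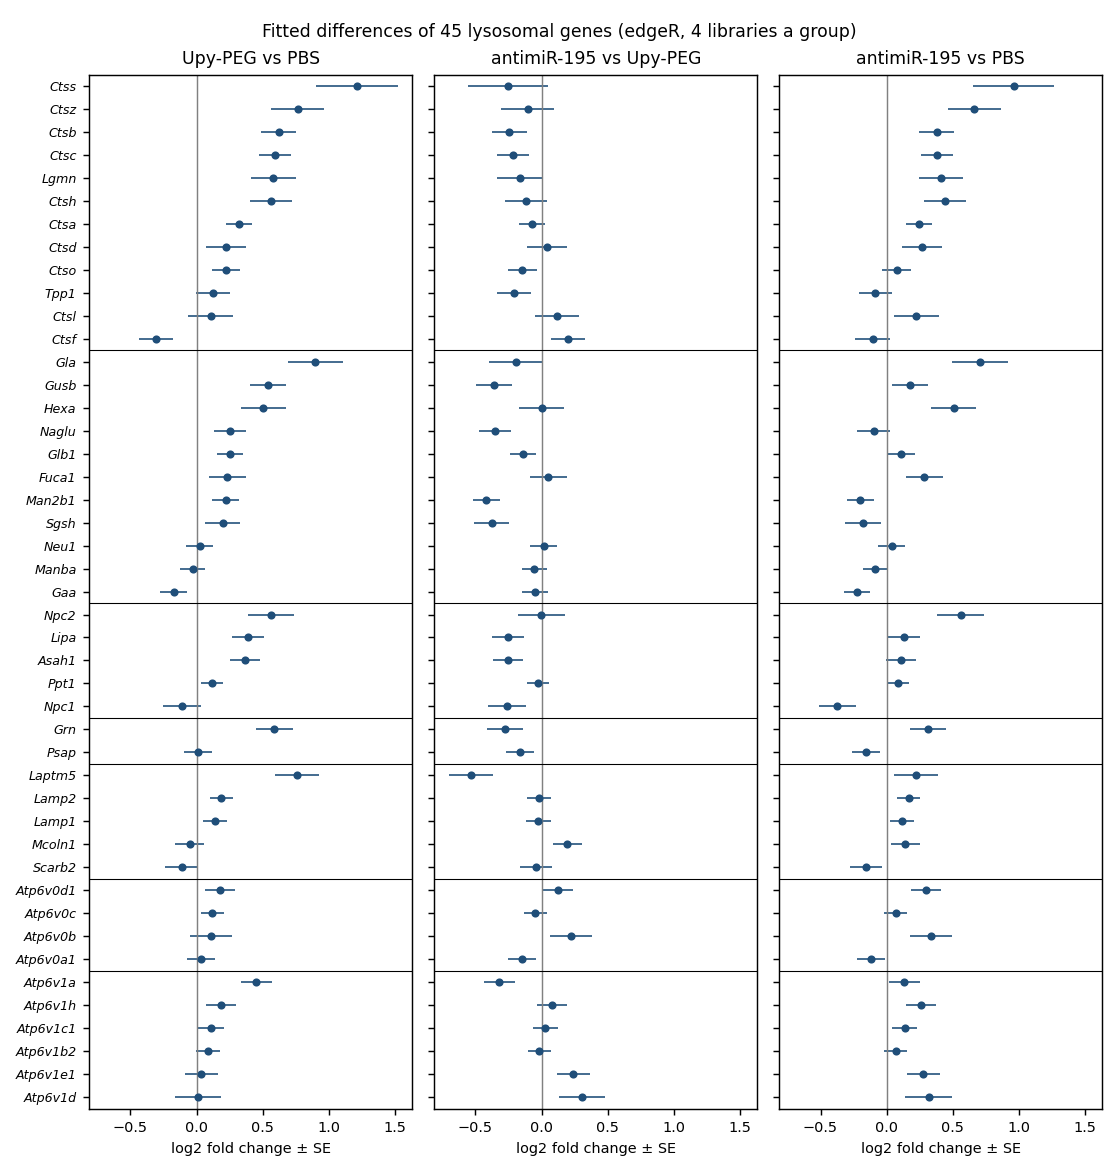
Log2 fold change and SE of each lysosomal gene for Upy-PEG against PBS, antimiR-195 against Upy-PEG and antimiR-195 against PBS, from 1 edgeR fit of 12 libraries, in rows grouped by role; the comparisons share libraries. Proteases and several glycosidases lie right of 0 in the first panel, most genes lie left of 0 in the second, and Gla, Ctss, Ctsz and Npc2 lie right of 0 in the third.

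MicroRNA miR-195 pairs with sites in the 3′ untranslated region of its targets mainly through its seed, bases 2 to 8, shown in capitals in the RefSeq sequence of mmu-miR-195a-5p (GRCm38.p6, plus strand, chr11:70235062-70235082). Sites matching that seed, TGCTGCT, were searched on the transcript strand in the longest untranslated region of each protein-coding gene (GENCODE M21). A site was found in 7 of the 45 lysosomal genes (15.6%), against 24.8% of 13317 tested genes. An added A after the match, which makes an 8mer, was found in 1 of 45 (2.22%), against 4.54% of tested genes. The site genes were Ctsl, Neu1, Ppt1, Scarb2 and the V1 subunits Atp6v1a, Atp6v1b2 and Atp6v1c1. The 8mer window of Scarb2 and the first window of Atp6v1a are shown with the match in capitals.
mmu-miR-195a-5p: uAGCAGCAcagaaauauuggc
Scarb2: agcctcccaagTGCTGCTAttacaggcacg
Atp6v1a: acacagtggacTGCTGCTgaagaaggatat

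The inhibitor comparison was then read for the site genes. Against Upy-PEG, 3 of the 7 site genes were higher in antimiR-195 hearts, and their median log2 fold change was −0.019, beside −0.13 for the 38 genes without a site. Scarb2 was at −0.044 ± 0.12, Atp6v1a at −0.32 ± 0.12, Ctsl at 0.12 ± 0.17 and Neu1 at 0.015 ± 0.10. Ppt1, Atp6v1b2 and Atp6v1c1 were at −0.030, −0.019 and 0.027. With library size alone as the scaling, Ctsl, Neu1 and Atp6v1c1 were below 0, at −0.040, −0.13 and −0.12. Without antimiR-195 replicates 2 and 3, 1 of the 7 was higher, and the medians were −0.095 with a site and −0.23 without. The signs of 4 site genes turned, with values of 0.13 for Scarb2, −0.19 for Ctsl, −0.10 for Neu1 and −0.054 for Atp6v1c1, and Atp6v1a was at −0.34.

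Against PBS, hearts with hydrogel and antimiR-195 had 34 lysosomal genes higher and 11 lower, with a median log2 fold change of 0.14 beside 0.0072 over all genes, of which 50.8% were above 0. By edgeR 0 of 45 passed an adjusted p of 0.05, as did 0% of all genes, and the smallest adjusted p was 0.253. At an unadjusted p under 0.05, 14 of 45 were higher (8.65% of all genes) and 2 were lower (7.89% of all genes). All antimiR-195 libraries lay above all PBS libraries in 3 of 45 genes, Ctsa, Npc2 and Lamp2 (2.74% of all genes), and below them in 2, Gaa and Man2b1 (3.32%). DESeq2 called 0 of the 45 and 51 genes in all. Proteases were higher in 10 of 12 cases, with a median of 0.32 and 7 at an unadjusted p under 0.05. The pump subunits were higher in 9 of 10 cases, with a median of 0.20, and Atp6v0d1 (0.30 ± 0.12), Atp6v1e1 (0.28 ± 0.13) and Atp6v1h (0.26 ± 0.11) had an unadjusted p under 0.05. Gla had 5.57, 9.12, 7.23 and 7.24 CPM in antimiR-195 libraries, against the PBS values above, with a log2 fold change of 0.70 ± 0.21 (adjusted p by edgeR = 0.253) and 1 antimiR-195 library within the PBS range. Ctsz (ENSMUSG00000016256, GRCm38 chr2:174427493-174439039) had 57.9, 124, 90.4 and 64.9 CPM in antimiR-195 libraries, against 57.1, 42.3, 53.1 and 61.0 CPM in PBS libraries. Its log2 fold change was 0.66 ± 0.20 (edgeR adjusted p = 0.253) with overlap in 1 library, and 0.41 without antimiR-195 replicate 2. Npc2 (ENSMUSG00000021242, GRCm38 chr12:84754562-84773152) had 79.3, 146, 111 and 82.7 CPM in antimiR-195 libraries, against 78.5, 59.2, 67.8 and 78.4 CPM in PBS libraries. The groups were just separate, with a log2 fold change of 0.56 ± 0.18 (adjusted p by edgeR = 0.253) that was 0.35 without antimiR-195 replicate 2. Once antimiR-195 replicates 2 and 3 were left out, the value was 0.53 for Gla, 0.21 for Ctsz and 0.20 for Npc2.

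The lower genes in this comparison included the glycogen-degrading Gaa, with 155, 141, 161 and 153 CPM in antimiR-195 libraries, against 188, 201, 162 and 163 CPM in PBS libraries. Its groups were separate at a log2 fold change of −0.22 ± 0.10 (adjusted p by edgeR = 0.294). Npc1 had 49.7, 32.1, 38.5 and 47.6 CPM in antimiR-195 libraries, against 46.3, 64.6, 57.4 and 49.2 CPM in PBS libraries. Replicates 2 and 3 were lowest and the log2 fold change was −0.37 ± 0.14 (edgeR adjusted p = 0.264). Without antimiR-195 replicates 2 and 3, the median over the 45 genes was 0.051, with 30 higher and 15 lower. In that edgeR fit 1 was higher at an unadjusted p under 0.05 (2.20% of all genes), and the smallest adjusted p was 0.999. The protease median was then 0.11 with 1 at an unadjusted p under 0.05, and the pump median 0.051 with 7 higher, 3 lower and 0 at that level. With the length slopes in the fit the protease median was 0.16 with 1 higher at that level (3.97% of all genes), and the pump median 0.048 with 0. Gaa and Npc1 were at −0.21 and −0.15 without these replicates. The macrophage markers had a median of 0.52 with all libraries, with 15 of 20 higher and 5 lower. Without these replicates their median was 0.13, with 14 higher and 6 lower. With all libraries the median was 0.0045 for neutrophil, 0.17 for fibroblast, 0.098 for cardiomyocyte and −0.19 for endothelial markers.

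With both hydrogel groups as 1 group against PBS, 38 of the 45 genes were higher and 7 lower, with a median log2 fold change of 0.18, while 49.2% of all genes were above 0. By edgeR 0 of 45 passed (0% of all genes), with a smallest adjusted p of 0.172, and DESeq2 called 9 of 45 and 360 genes in all. At an unadjusted p under 0.05, 19 were higher (8.67% of all genes) and 1, Gaa, was lower (6.57%). All 8 hydrogel libraries lay above all 4 PBS libraries in 3 of 45 genes (1.04% of all genes) and below them in 0 (1.22%). These were Ctsa, Npc2 and Lamp2. Ctsa (ENSMUSG00000017760, GRCm38 chr2:164832873-164841032) had 168, 215, 186 and 167 CPM in antimiR-195, 187, 203, 188 and 196 CPM in Upy-PEG and 149.7, 163, 155 and 153 CPM in PBS libraries, a log2 fold change of 0.28 ± 0.086 for the combined groups (edgeR adjusted p = 0.186). Lamp2 had 212, 212, 199.95 and 206 CPM in antimiR-195 libraries, close to Upy-PEG, and a log2 fold change of 0.18 ± 0.077 for the combined groups (edgeR adjusted p = 0.3). Without antimiR-195 replicates 2 and 3 the median over the 45 genes was 0.12, with 37 higher and 8 lower. In that fit 15 were higher at an unadjusted p under 0.05 (6.35% of all genes), Ctsa was at 0.22 and Lamp2 at 0.19.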

How the data were processed

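Left ventricle RNA of 12 libraries was extracted with TRIzol and made into libraries with a stranded mRNA kit, per the labels' protocols. The authors deposited a table of read counts per gene and a table of RPKM values. STAR, HTSeq, DESeq and the build GRCm38 are named in the submitters' processing notes, while their versions, and whether counting used the strand, are not given in the sources used here. Without strand, reads of genes that overlap on opposite strands cannot be told apart. Ctss, Glb1, Manba and Atp6v1e1 each overlap another gene on their own strand, where reads that match both genes may have been left out as ambiguous.

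The deposited count files and the count table held equal values in all 459516 cells. Reads assigned to no gene (6.25% to 8.77%) or to several genes (0.664% to 0.898%) stayed out. These are shares of the reads assigned to 1 gene, several genes or no gene. Alignments of reads that matched several places were not counted either. They numbered 0.921 and 0.893 per counted read in antimiR-195 replicates 2 and 3, against 0.579 to 0.749 in the other libraries. Groups came from the labels, with replicates numbered by accession order. Genes kept by filterByExpr (14770) were fitted in 1 edgeR 4.0.16 quasi-likelihood model (R 4.3.3, TMM scaling, 9 residual degrees of freedom) over all 12 libraries, with 3 pairwise contrasts and 1 contrast of both hydrogel groups against PBS. P-values were adjusted by Benjamini-Hochberg over all genes, with a threshold of 0.05. CPM used TMM-scaled library sizes. Isoform ratios used a pseudocount of 0.5 reads and exact permutation over libraries. The script was tested on simulated data with known fold changes.

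Alternatives were DESeq2 1.42.0, limma 3.58.1 with voom sample weights or on log2 RPKM with pseudocounts of 0.1 and 1, RLE scaling, library size alone, no filter, the compared libraries alone, a length slope covariate, an adjusted p of 0.1, and leaving out libraries.

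Per-library values are given for the 2 genes of each role with the lowest p for Upy-PEG against PBS and the 3 with the lowest p in each other pairwise comparison. Ctss, Ctsf, Gaa, Npc1 and Ctsa were added after their values were seen. Other pathway genes named are the 4 with the lowest p in each direction plus chosen regulators, isoforms and inhibitors. Of these, Cd68, Gpnmb, Tfec and Atp6v0d2 have CPM per library and the rest fold changes only. The members and lists were chosen with earlier results of these data known.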

Additional observations from a re-analysis of the deposited data

Results flagged for a closer look

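In 3 of 57 groups of 4 libraries tested, 1 library stood far from the other 3, measured as its gap to the nearest divided by the range of the group. Chance flags about 1 in 20 groups. For Gla, Upy-PEG replicate 2 was highest at 9.58 CPM, while the other Upy-PEG libraries had 7.79, 7.86 and 8.09 CPM. For Gusb, Upy-PEG replicate 3 was lowest at 46.0 CPM, while the other Upy-PEG libraries had 50.9, 51.3 and 51.6 CPM. For the mean log2 deviation of the 45 lysosomal genes, PBS replicate 2 was lowest at −0.242, while the other PBS libraries were at −0.122, −0.114 and −0.0988.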

How the results depend on the processing

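No paired analysis was possible because the labels give no pairing and replicate numbers follow accession order. For Upy-PEG against PBS, edgeR called 0 lysosomal genes and 0 genes in all. It called 2 of 69 genes with no filter, 10 of 172 in the compared libraries alone, 14 of 349 without antimiR-195 replicates 2 and 3, 14 of 332 with the length slope as a covariate and 5 of 155 at an adjusted p under 0.1. DESeq2 called 12 of 519 and voom with sample weights 16 of 918, while leaving out 1 library gave 0 to 9 lysosomal genes of 0 to 150, the highest without antimiR-195 replicate 2. The median of the 45 genes was 0.2992 with library size alone, against 0.20. For antimiR-195 against Upy-PEG the median of −0.074 was −0.2263 with library size alone, −0.1709 with voom, −0.2314 and −0.2262 on RPKM with pseudocounts of 0.1 and 1, −0.1935 without antimiR-195 replicates 2 and 3, −0.1554 with the length slope and −0.1329 without antimiR-195 replicate 2. For antimiR-195 against PBS the median of 0.14 was 0.08496 with library size alone, 0.08687 and 0.08331 on RPKM, 0.06534 with the length slope and 0.05064 without antimiR-195 replicates 2 and 3. For the hydrogel groups against PBS 0.18 became 0.1186 without those replicates and 0.1205 with the length slope. Library size alone moved the median of all genes to 0.073 for Upy-PEG against PBS and to −0.16 for antimiR-195 against Upy-PEG. DESeq2 called 13 genes for antimiR-195 against Upy-PEG, 51 for antimiR-195 against PBS and 360, with 9 lysosomal, for the hydrogel groups against PBS. With no filter 1 and 6 genes, and with voom 1 and 4, were called in these last comparisons.

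Counts at an unadjusted p under 0.05 were added after seeing the data. The share of all genes in the same fit and direction is given in parentheses. For Upy-PEG against PBS, 17 higher genes (9.33%) became 29 with library size alone (13.0%) and 30 with voom (13.4%). On RPKM there were 29 with either pseudocount (12.3% and 12.4%). For antimiR-195 against Upy-PEG, 7 lower genes (6.4%) became 20 with library size alone (17.3%) and 15 with voom (6.95%). On RPKM there were 21 and 22 (17.6% and 17.4%). The count was 15 without antimiR-195 replicates 2 and 3 (6.61%) and 16 with the length slope (5.13%). It was 5 to 12 with 1 library left out (2.79% to 10.5%). For antimiR-195 against PBS, 14 higher genes (8.65%) became 9 with library size alone (5.28%) and 6 with voom (5.73%). On RPKM there were 8 with either pseudocount (4.69% and 4.58%). The count was 9 in the compared libraries alone (6.73%) and 1 without antimiR-195 replicates 2 and 3 (2.20%). It was 3 with the length slope (3.97%) and 6 to 18 with 1 library left out (3.68% to 13.97%). Psap for Upy-PEG against PBS ran from −0.0156 to 0.0568 with 1 library left out. With 1 library left out, the log2 ratio of Atp6v0d2 to Atp6v0d1 differed by 0.9194 to 1.3681 for Upy-PEG against PBS. It differed by −1.4252 to −0.9765 for antimiR-195 against Upy-PEG and by −0.2007 to 0.0709 for antimiR-195 against PBS. Every 2-sided exact permutation p, which doubles the smaller tail, then missed 0.05. With so few libraries that p could not have reached 0.05 whatever the values, so these misses carry no information. The cause of the shifts between settings was not tested. The share of higher genes at an unadjusted p under 0.05 was 70.9% for Upy-PEG against PBS and 91.7% with library size alone, and 51.04% and 5.37% for antimiR-195 against Upy-PEG.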
